A study of Mus musculus with 6 samples.

Results

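The transcripts described here encode the proteins of the cytosolic ribosome, measured in the ventricles of mice after repeated atrial pacing. Members were taken by name from the per-mouse expression table, as every row named Rpl or Rps followed by a digit, Rplp0, Rplp1, Rplp2 and Rpsa, without the Rps6k kinases and rows whose names mark a pseudogene. Of 24239 rows, 86 carried such a name and 83 had a mean of at least 1 FPKM (fragments per kilobase of transcript, scaled to the size of the library). The 83 members were 31 small-subunit genes, 45 large-subunit genes, 6 paralogs (Rpl3l, Rpl7l1, Rpl22l1, Rpl36al, Rps4l and Rps27l) and Rps19bp1. Rps19bp1 encodes a protein that binds the small-subunit protein Rps19, and it entered by its name alone. The Pacing group held 3 mice that had been paced through a bipolar catheter in the esophagus, close to the atria. Each session took the pacing cycle length down to 80 ms for 45 min, with 3 min at 120 ms before and after, on 5 days and, following 2 days of rest, on 3 more. The Sham group held 3 control mice that were not paced. All 6 mice were male C57BL/6 animals of 8 to 10 weeks, and polyA RNA from frozen ventricles was sequenced in stranded libraries with paired reads of 151 bases. The question put to these genes is whether their transcripts changed in the ventricle when the atria had been paced.

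The ribosome joins a small subunit, which decodes the mRNA, to a large subunit, which makes the peptide bond, and most of its proteins are needed in equal amounts. Most vertebrate ribosomal protein mRNAs begin with a C followed by an unbroken run of pyrimidines, the terminal oligopyrimidine or TOP tract, through which the TOR kinase pathway and the RNA-binding protein Larp1 control their translation and stability together. In heart muscle, growth of the cell under load is accompanied by the production of new ribosomes, and striated muscle also has a large-subunit protein of its own, Rpl3l, in place of the general form Rpl3.

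The start of the transcript was read from RefSeq (GRCm38.p6) for 62 members found in a table of promoters, as windows of 30 bases that hold 15 bases before the annotated start and 15 bases from it on. The windows below, 5′ to 3′ on the strand of the gene, have their longest run of C and T in capitals, and the annotated start is the base after the first 15. Where a gene has several annotated starts, the first in the table is printed. Rpl28, Rps7, Rps10 and Rps6 are shown because their levels followed the common profile of the members most closely, Rplp2 as a protein of the stalk, the Rps27 locus (its row is named Rps27rt in the deposited table) with its paralog Rps27l, Rps28 as the member with the lowest p between the groups, and Rpl3l as the form made in striated muscle.
Rpl28 (chr7:4792950-4792979, plus strand): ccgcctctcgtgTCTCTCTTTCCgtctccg
Rps7 (chr12:28635939-28635968, minus strand): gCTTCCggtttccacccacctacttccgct
Rps10 (chr17:27635230-27635259, minus strand): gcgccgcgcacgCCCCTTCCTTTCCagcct
Rps6 (chr4:86857353-86857382, minus strand): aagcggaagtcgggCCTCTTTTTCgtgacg
Rplp2 (chr7:141447636-141447665, plus strand): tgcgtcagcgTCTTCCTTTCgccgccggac
Rps27rt (chr3:90213634-90213663, minus strand): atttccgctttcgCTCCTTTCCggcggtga
Rps27l (chr9:66946071-66946100, plus strand): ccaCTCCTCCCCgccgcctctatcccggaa
Rps28 (chr17:33824548-33824577, minus strand): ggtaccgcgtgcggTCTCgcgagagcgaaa
Rpl3l (chr17:24727811-24727840, plus strand): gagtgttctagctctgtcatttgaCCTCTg
From the annotated start on, the unbroken pyrimidine run that opens with C was 8 bases long in Rpl28, 2 in Rps7, 10 in Rps10, 9 in Rps6, 5 in Rplp2, 7 in Rps27rt and 3 in Rps28. In Rps27l and Rpl3l no such run began at the start. A run of at least 5 bases that opened with C at the annotated start was present in 13 of the 62 members (21.0%), against 813 of 27025 genes in the promoter table (3.01%). All 13 were among the 56 canonical ribosomal proteins with a window (23.2%), while the 6 other members with a window, 5 paralogs and Rps19bp1, held 0. Anywhere in the window, a run of at least 8 pyrimidines was found in 26 of 62 members (41.9%), against 13.9% of all genes. These were 24 of the 56 canonical members (42.9%) and 2 of the 6 others (33.3%). These are matches of letters at annotated starts on the coding strand, and a start that is annotated some bases away from the real one gives no match.

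Each library was measured to an effective depth of between 6277000 and 8905000 fragments, read from the steps between its lowest FPKM values, and Sham 3 was the shallowest. Markers of ventricular muscle were at high level in every library, with a sum over 10 genes of 67775 to 69615 FPKM in Pacing ventricles and 70694 to 91560 FPKM in Sham ventricles. All 8 atrial markers were above the floor in every library, some of them at low level in Sham 2, with sums of 5789, 14768 and 10581 FPKM in Pacing 1, 2 and 3, and of 12752, 435 and 5336 FPKM in Sham 1, 2 and 3. Sham 2 thus stood apart from the other libraries in its atrial markers. Lung markers stood apart in Pacing 2 and Pacing 3, at sums of 318 and 1734 FPKM over 10 genes, against 4.07 FPKM in Pacing 1 and 0.771 to 5.56 FPKM in Sham libraries. Because RNA came from whole tissue, fewer cells of a type and less RNA per cell cannot be told apart in any value below.

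The summed level of cytosolic ribosomal protein transcripts differed less between paced and sham ventricles than it did among the sham mice. It was 54102, 54506 and 52478 FPKM in Pacing 1, 2 and 3, and 53729, 47941 and 58735 FPKM in Sham 1, 2 and 3. The means were 53695 ± 1073 FPKM in Pacing ventricles and 53468 ± 5402 FPKM in Sham ventricles (SD, n = 3 each). All 3 Pacing sums lay inside the range of the Sham sums, so that the groups overlapped fully. As a share of all FPKM in the library, the members held 8.00%, 7.92% and 7.97% in Pacing 1, 2 and 3, and 7.99%, 6.76% and 7.76% in Sham 1, 2 and 3. The mean share was 7.96 ± 0.0380% in Pacing ventricles and 7.51 ± 0.654% in Sham ventricles (SD, n = 3 each). The groups overlapped on this scale too, but through Sham 1 alone, since Sham 2 and Sham 3 lay below every Pacing share. The paced mice lay close to each other, while the sham mice were spread by Sham 2, which was low on both scales, and Sham 3, which was high in the sum alone. The FPKM of all genes together summed to 658677 to 687887 in Pacing libraries and 672045 to 756507 in Sham libraries, with the highest sum in Sham 3.

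**Figure D1:**
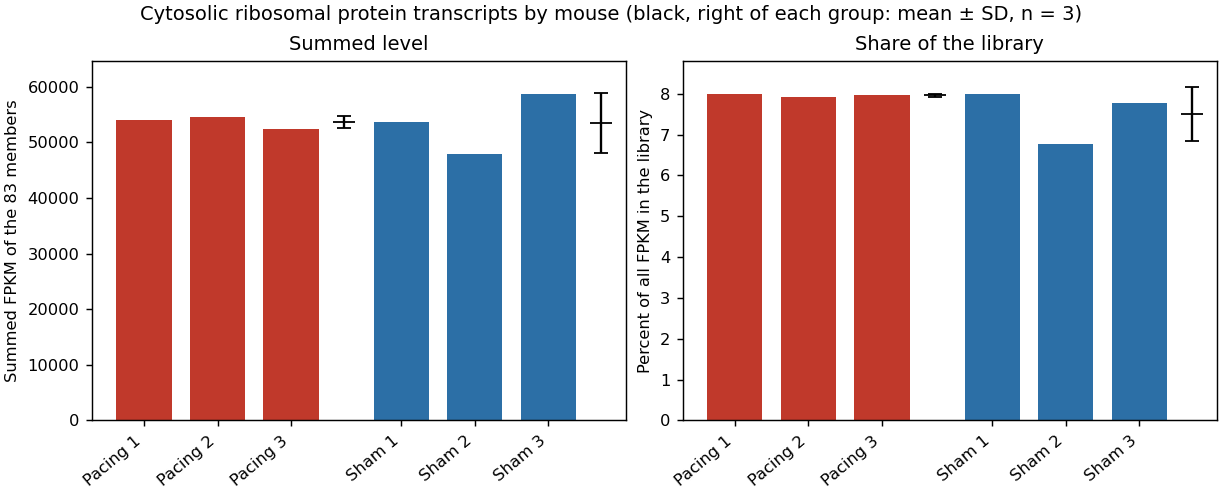
Summed FPKM of the 83 members (left) and their percent of all FPKM in the library (right), with 1 bar per mouse, and the mean and SD of 3 mice to the right of each group. The 3 Pacing bars stand at 52478 to 54506 FPKM, inside the Sham range of 47941 to 58735 FPKM.

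The members varied together from mouse to mouse, and most of this shared variation lay between sham mice. Taking each member's log2 FPKM minus its own mean over the 6 mice, the median over the members was 0.01, 0.02 and -0.01 in Pacing 1, 2 and 3, and 0.00, -0.15 and 0.13 in Sham 1, 2 and 3. Over all genes tested, taken as log2(FPKM + 1), the medians lay between -0.01 and 0.01. Sham 3 was the mouse with the highest level for 64 of the 83 members, and Sham 2 was the mouse with the lowest level for 66. Pacing 1, 2 and 3 gave the highest level for 6, 8 and 3 members. The place of Sham 3 depended on the scale: when every library was rescaled to the same summed FPKM, Sham 3 was highest for 9 members, while Pacing 1, 2 and 3 were highest for 20, 15 and 23. Sham 2 was still the lowest for 74 members on that scale and for 64 after quantile normalization, so its low place did not depend on those scalings. Sham 2 was also the library with the lowest sum of atrial markers and Sham 3 the shallowest library. The part of these differences in the level of the ribosomal proteins was not tested.

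Single members differed in how closely they kept to the group. The correlation of each member with the median profile of the other members over the 6 mice (Pearson's r, a description that shares libraries and scaling, and that rests on Sham 2 and Sham 3) had a median of 0.86, and it was over 0.8 for 53 of 83 members. Among all genes tested, taken as log2(FPKM + 1), 2.96% had an r over 0.8 and the median was 0.01. Closest were Rpl28 (0.995), a large-subunit protein, and the small-subunit proteins Rps7 (0.987), Rps10 (0.986) and Rps6 (0.983), the last being the substrate from which the S6 kinases take their name. The members farthest from the profile were Rpl22l1 (0.14), Rpl26 (0.06), Rpl3l (-0.04) and Rps4l (-0.16), of which 3 are paralogs. Outside the members, Hnrnpa1, a splicing factor whose mRNA also has a TOP tract, followed the same profile with an r of 0.96. This was the highest r of the genes compared. Some other genes with a TOP tract followed it less closely, with 0.51 for Eef1a1, 0.50 for Pabpc1 and 0.31 for Vim. Biogenesis and initiation factors, compared as separate lists, were spread widely, from -0.97 to 0.90 and from -0.77 to 0.88. Gnb2l1 and Fau, genes of the small subunit whose names the rule does not cover, followed the profile with 0.88 and 0.86. The coefficient of variation over the 6 mice had a median of 7.50% among members, with 3.91% for Rpl11 at the low end and 61.0% for Rpl26 at the high end.

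**Figure D2:**
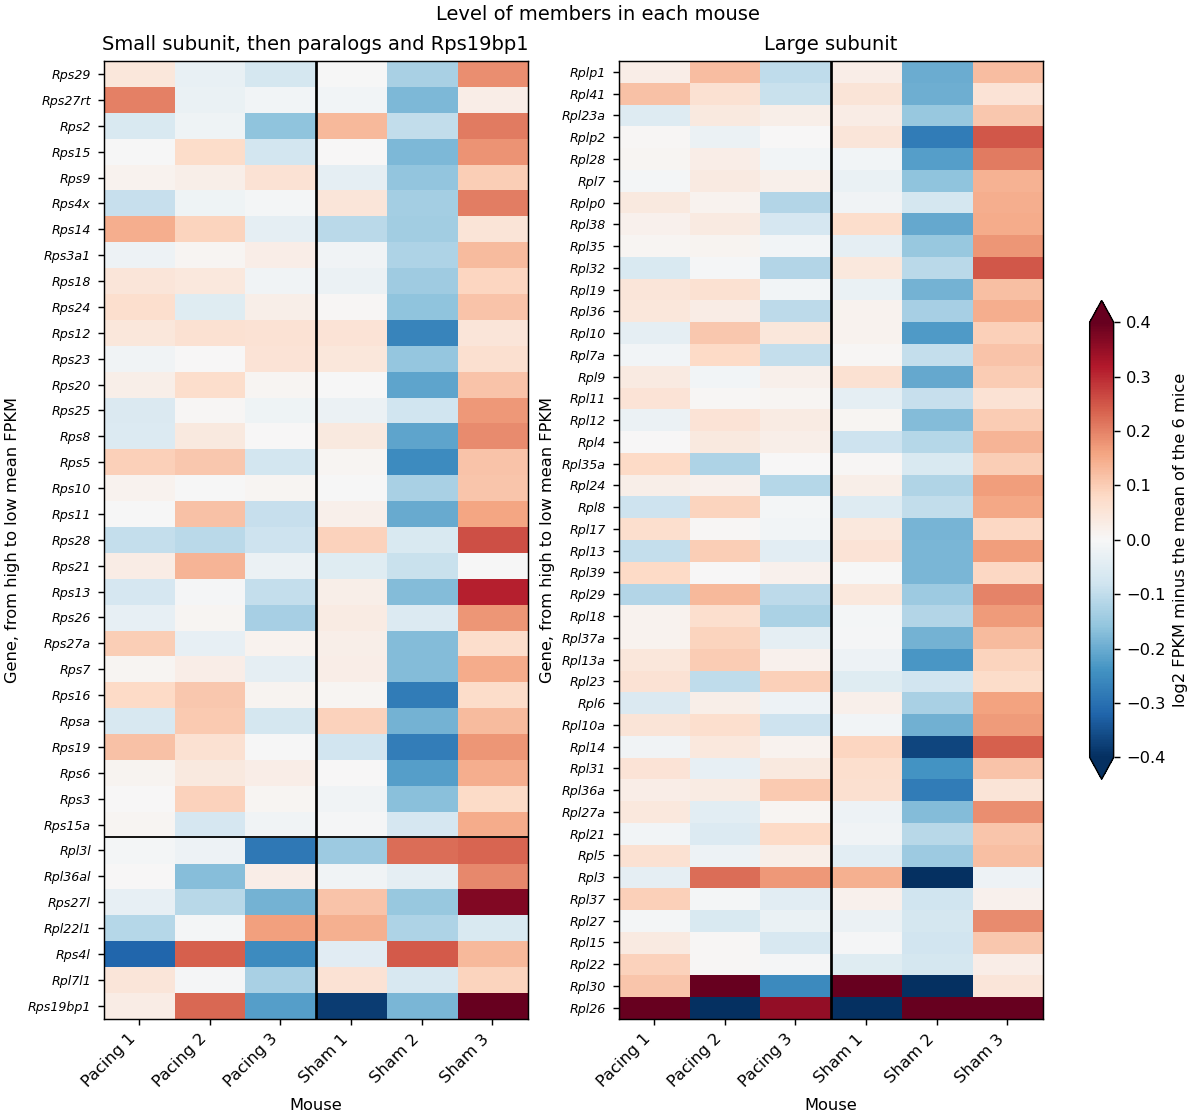
Level of members in every mouse, as log2 FPKM minus the mean of that gene over the 6 mice (colour), for small-subunit genes, paralogs and Rps19bp1 (left) and large-subunit genes (right), each ordered by mean FPKM. The Sham 2 column is blue and the Sham 3 column red for most genes, with Rpl3l, Rps4l and Rpl26 among the exceptions in Sham 2, and values beyond the colour scale, as in Rpl26 and Rpl30, are drawn in its end colours.

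No ribosomal protein gene passed the test between paced and sham ventricles. Of the 83 members, 0 had an adjusted p under 0.05 (limma on log2(FPKM + 1), Benjamini-Hochberg adjustment over 11994 genes, lowest adjusted p = 0.642), as did 0 of all genes (0%). At an unadjusted p under 0.05, 0 members were higher and 0 were lower in Pacing ventricles, where the share of all genes was 5.17% higher, 3.69% lower and 8.85% in either direction. The difference Pacing minus Sham was above 0 for 49 members and below 0 for 34, with a median of 0.02 (range -0.22 to 0.24), beside a median of -0.01 over all genes. The median size of the difference, regardless of sign, was 0.04 among members and 0.10 over all genes. The 95% interval of the difference held 0 for all 83 members, and for 78 of them it lay inside -0.50 to 0.50. Those that reached further were Rpl26, Rpl3, Rpl30, Rps27l and Rps4l. These intervals, not adjusted for the number of genes, reached 0.168 to 1.52 to either side of the estimate, with a median of 0.23.

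How the members split by direction rested on Sham 2, Sham 3 and the scale. Without Sham 2, 15 of 83 differences were above 0 (median -0.06), and without Sham 3, 74 were (median 0.09). With libraries rescaled to the same sum, 73 were above 0 with a median of 0.09, where all genes together moved to 0.06. After quantile normalization 66 were above 0, and after centring on the median gene 39 were. No member passed the adjusted threshold under any of these settings. In the authors' deposited table, 0 members were called at a q under 0.05, where 1.38% of its rows were, and the lowest q of a member was 0.639, for Rps27l.

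Small-subunit genes high in level included Rps29, Rps27rt, Rps2 and Rps15, with means between 1214 and 1669 FPKM in Pacing ventricles and between 1221 and 1718 FPKM in Sham ventricles. Of the 31 small-subunit genes, 18 had a difference above 0 and 13 below 0, with a median of 0.02 that turned to -0.01 after centring on medians. In FPKM as deposited, Rps28 was the only member whose groups did not overlap, where 13.2% of all genes had no overlap (6.97% lower and 6.24% higher). This separation was lost with equal sums and after quantile normalization, where Rps28 overlapped. On these scales 16 and 12 other members had no overlap, all with Pacing above Sham. Of all genes, 13.9% and 14.6% had no overlap there, counted in either direction. Rps28 (chromosome 17, 33823037 to 33824498 in mm10) had 614, 608 and 619 FPKM in Pacing 1, 2 and 3, against 699, 629 and 784 FPKM in Sham 1, 2 and 3. The nearest values of the groups were 619 FPKM in Pacing 3 and 629 FPKM in Sham 2. Its difference was -0.19 (SE 0.10), with the lowest p of all members (limma unadjusted p = 0.0839, adjusted p = 0.642).

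Rps2, a protein at the entry of the mRNA channel, had 1283, 1321 and 1195 FPKM in Pacing 1, 2 and 3, and 1461, 1250 and 1544 FPKM in Sham 1, 2 and 3. Sham 2 fell within the Pacing range, and the difference was -0.16 (SE 0.11, limma adjusted p = 0.711). Rps2 has 22 annotated genes with at least 95% identity to its transcript, all of them pseudogenes, so that its value may share reads with those copies. Rps14, a protein of the platform of the small subunit, leaned the other way with 1046, 1006 and 923 FPKM in Pacing 1, 2 and 3, and 878, 859 and 980 FPKM in Sham 1, 2 and 3. Its groups overlapped through Pacing 3 and Sham 3, and its difference was 0.13 (SE 0.09, limma adjusted p = 0.741). Rps16 and Rps21 followed with differences of 0.13 and 0.09. On the scale of equal sums, the genes with an unadjusted p under 0.05 included Rps14 (0.0151) and Rps21 (0.0325), both above 0 in Pacing and each at an adjusted p of at least 0.451 (limma).

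Rps6, Rps19 and Rps27a, small-subunit genes with roles known beyond translation itself, kept to the common profile. Rps6, the target of the S6 kinases, averaged 415 ± 4.22 FPKM in Pacing ventricles and 403 ± 50.9 FPKM in Sham ventricles (SD, n = 3 each). Rps19, in which mutations cause an inherited anaemia in humans, averaged 496 ± 20.7 FPKM in Pacing ventricles and 461 ± 72.9 FPKM in Sham ventricles. Rps27a, which is made as a fusion with ubiquitin, averaged 559 ± 26.3 FPKM in Pacing ventricles and 540 ± 47.4 FPKM in Sham ventricles. In each of these genes the Pacing range lay inside the Sham range or overlapped it. Rpsa, a small-subunit protein also known as a laminin receptor, averaged 480 ± 33.9 FPKM in Pacing ventricles and 488 ± 56.3 FPKM in Sham ventricles, with a difference of -0.02.

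Large-subunit genes were led by Rplp1, Rpl41, Rpl23a, Rplp2 and Rpl28. Of the 45 large-subunit genes, 29 had a difference above 0 and 16 below 0, with a median of 0.03. The stalk, to which elongation factors bind, is built from Rplp0, Rplp1 and Rplp2. Rplp1, the most abundant member per length, had 1758, 1876 and 1608 FPKM in Pacing 1, 2 and 3, and 1755, 1502 and 1878 FPKM in Sham 1, 2 and 3. Rplp2 had 976, 958 and 973 FPKM in Pacing 1, 2 and 3, and 1006, 802 and 1156 FPKM in Sham 1, 2 and 3. Rplp0 had 918, 902 and 824 FPKM in Pacing 1, 2 and 3, and 885, 851 and 988 FPKM in Sham 1, 2 and 3. All 3 stalk genes overlapped between the groups, with differences of 0.03 for Rplp1, -0.01 for Rplp2 and -0.04 for Rplp0. Rplp1 and Rplp2 were lowest in Sham 2 and highest in Sham 3, as most members were.

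Rpl5 and Rpl11, which bind the small rRNA of the large subunit and can also bind Mdm2, the negative regulator of p53, showed little difference. Rpl5 averaged 320 ± 9.01 FPKM in Pacing ventricles and 311 ± 28.9 FPKM in Sham ventricles, and Rpl11 averaged 750 ± 14.4 FPKM in Pacing ventricles and 728 ± 38.5 FPKM in Sham ventricles (SD, n = 3 each). The differences were 0.04 for Rpl5 and 0.05 for Rpl11. The large-subunit gene with the largest difference was Rpl3 (chromosome 15, 80077781 to 80083406 in mm10), whose protein reaches toward the centre where peptide bonds form. Rpl3 had 281, 336 and 324 FPKM in Pacing 1, 2 and 3, and 317, 205 and 283 FPKM in Sham 1, 2 and 3. The spread came from Sham 2, the lowest value, while Sham 1 lay among the Pacing values. Its difference was 0.24 (SE 0.16, limma unadjusted p = 0.159, adjusted p = 0.703) and fell to 0.06 without Sham 2.

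The lowest large-subunit rows were also the most variable. Rpl26 had 26.7, 5.68 and 19.5 FPKM in Pacing 1, 2 and 3, and 5.60, 22.2 and 34.9 FPKM in Sham 1, 2 and 3. Rpl30 had 25, 30.7 and 19.4 FPKM in Pacing 1, 2 and 3, and 31.1, 13.8 and 23.9 FPKM in Sham 1, 2 and 3. Neither gene separated the groups, and both lay far below the other proteins of their subunit, with which they are needed in equal amounts. Rpl26 has 6 near-identical pseudogenes, while no near-identical gene was found for Rpl30 or for the low small-subunit gene Rps15a. Rpl7a, with 32 near-identical genes, averaged 792 FPKM over the 6 mice. Rps15a, at 53.0 ± 1.42 FPKM in Pacing ventricles and 54.9 ± 4.27 FPKM in Sham ventricles, was the lowest small-subunit gene and varied little. How reads that match several loci were shared out is not given in the sources used here, and its part in these levels was not tested.

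Among the paralogs, 5 of 6 had a difference below 0 (median -0.15), and none passed the test. Rps27l, a copy of Rps27 whose human form is induced by p53 (chromosome 9, 66946118 to 66949509 in mm10), had 196, 186 and 176 FPKM in Pacing 1, 2 and 3, and 217, 180 and 259 FPKM in Sham 1, 2 and 3. Sham 2 fell among the Pacing values, and the difference was -0.22 (SE 0.13, limma adjusted p = 0.674). Its main copy, in the row Rps27rt that lies at the Rps27 locus of RefSeq (chromosome 3, 90212667 to 90213648), had 1689, 1440 and 1457 FPKM in Pacing 1, 2 and 3, and 1458, 1297 and 1494 FPKM in Sham 1, 2 and 3. The ratio of Rps27l to Rps27rt, which is the same whatever size a library is scaled to, was 0.116, 0.129 and 0.121 in Pacing 1, 2 and 3, and 0.149, 0.139 and 0.173 in Sham 1, 2 and 3. Every Pacing ratio was below every Sham ratio. The means were 0.122 ± 0.00651 in Pacing ventricles and 0.154 ± 0.0176 in Sham ventricles (SD, n = 3 each), a log2 difference of -0.33. The exact two-sided permutation p was 0.1, the smallest that 3 mice against 3 allow. Of the 6 pairs of paralog and main copy this was the only one to reach it, and the p is not adjusted for the number of pairs. Rps27rt has 1 near-identical gene, so that its value in the ratio may share reads with that copy.

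For the other pairs the ratios overlapped. Rpl36al to Rpl36a stood at 0.627 ± 0.0391 in Pacing ventricles and 0.725 ± 0.0807 in Sham ventricles (exact permutation p = 0.2), and both copies encode nearly the same protein. Rpl22l1 to Rpl22 stood at 1.22 ± 0.158 in Pacing ventricles and 1.25 ± 0.135 in Sham ventricles (exact permutation p = 0.9), so that the paralog was the more abundant transcript of this pair per length in both groups. Rpl7l1 and Rps4l were minor, at 0.0240 ± 0.00172 and 0.0300 ± 0.00618 of the level of Rpl7 and Rps4x in Pacing ventricles, and at 0.0255 ± 0.00144 and 0.0330 ± 0.00646 in Sham ventricles (exact permutation p = 0.3 and 0.5). Rps4l itself had 23.8, 35 and 24.9 FPKM in Pacing 1, 2 and 3, and 28.7, 35.2 and 32.4 FPKM in Sham 1, 2 and 3. Its row spans 397 kb against 0.941 kb for the RefSeq gene of that name, so that its value is not that of the gene alone.

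**Figure D3:**
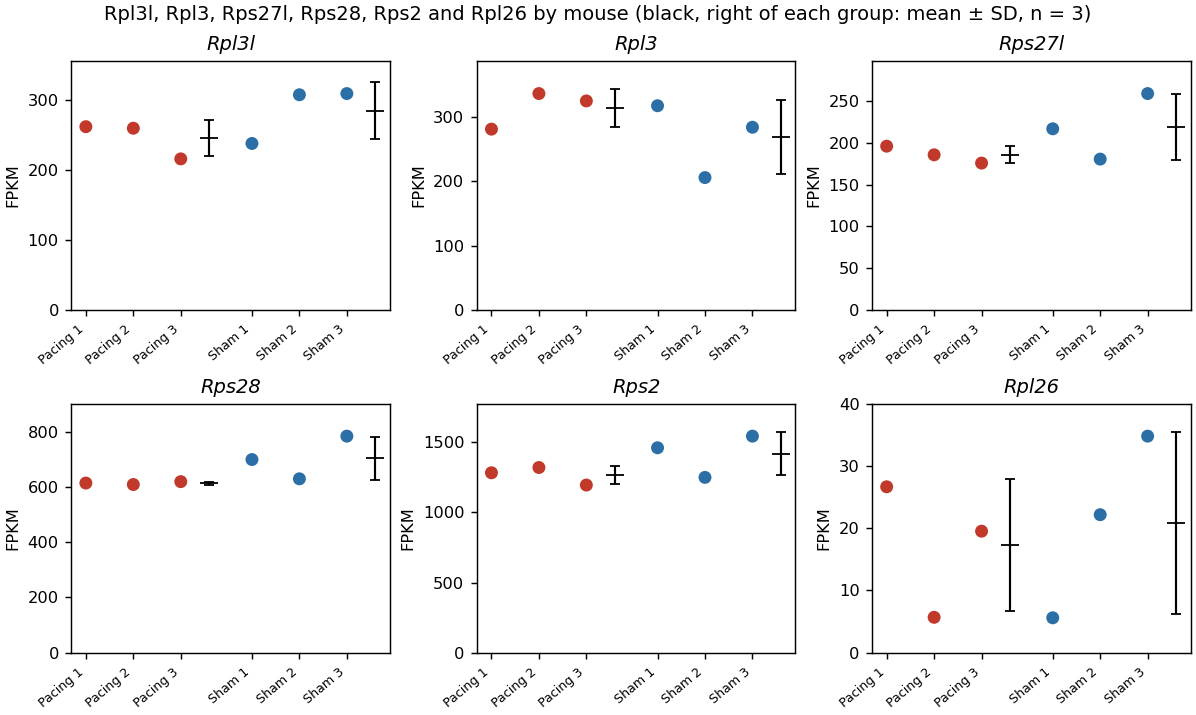
FPKM of Rpl3l, Rpl3, Rps27l, Rps28, Rps2 and Rpl26 in each mouse (points), with the mean and SD of 3 mice to the right of each group and all axes starting at 0. The groups are apart for Rps28 alone, at 608 to 619 FPKM in Pacing and 629 to 784 FPKM in Sham.

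Rpl3l (chromosome 17, 24727829 to 24736149 in mm10), the form of Rpl3 made in striated muscle, was about as abundant per length in these ventricles as Rpl3 itself, and it did not follow the profile of the other members. Rpl3l had 261, 259 and 216 FPKM in Pacing 1, 2 and 3, and 237, 307 and 309 FPKM in Sham 1, 2 and 3. It was high in Sham 2, where nearly all other members were low, and the groups overlapped through Sham 1. Its difference was -0.21 (SE 0.13, limma unadjusted p = 0.139, adjusted p = 0.684). The ratio of Rpl3l to Rpl3 was 0.932, 0.772 and 0.665 in Pacing 1, 2 and 3, and 0.750, 1.49 and 1.09 in Sham 1, 2 and 3. The means of 0.790 ± 0.134 in Pacing ventricles and 1.11 ± 0.373 in Sham ventricles (SD, n = 3 each) differed by -0.45 on the log2 scale, with an exact two-sided permutation p of 0.3. Rpl3 was the more abundant form in all 3 paced mice and in Sham 1, and Rpl3l was the more abundant form in Sham 2 and Sham 3.

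The highest ratios stood in the libraries with the lowest sums of atrial markers. Sham 2, with 435 FPKM over the 8 atrial markers, had the highest ratio, and Sham 3 and Pacing 1, with 5336 and 5789 FPKM, came next. Pacing 2, Sham 1 and Pacing 3, with 14768, 12752 and 10581 FPKM, had the lowest ratios of 0.772, 0.750 and 0.665. Atrial markers were not alone in this order. Sums of 10 fibroblast markers were also lowest in Sham 2, Sham 3 and Pacing 1, at 1531, 1662 and 1857 FPKM. They were 2347, 2141 and 2583 FPKM in Pacing 2, Sham 1 and Pacing 3. Sums of ventricular markers were highest in Sham 2 and Sham 3, at 87038 and 91560 FPKM. All 8 atrial markers had a difference above 0 (median 1.61) and all 10 ventricular markers a difference below 0 (median -0.20), and 10 of 10 fibroblast markers lay above 0 (median 0.37). So did 9 of 9 adipocyte markers (median 2.19), 9 of 9 lung markers (median 2.47) and 12 of 12 macrophage markers (median 0.30), while 10 of 10 endothelial markers lay below 0 (median -0.19). Erythrocyte markers lay above 0 for 4 of 5 (median 1.16) and lymphocyte markers for 1 of 2. Erythrocyte marker sums were 230, 336 and 172 FPKM in Pacing 1, 2 and 3, and 109, 144 and 91.6 FPKM in Sham 1, 2 and 3. At an unadjusted p under 0.05 were 1 of 8 atrial, 2 of 10 ventricular, 5 of 10 fibroblast, 6 of 9 adipocyte and 8 of 9 lung markers. So were 2 of 12 macrophage, 3 of 10 endothelial, 4 of 5 erythrocyte and 0 of 2 lymphocyte markers. Among all genes, 8.85% were at that p in either direction. Of the markers, 0 passed the adjusted threshold (limma, lowest adjusted p = 0.107, for an erythrocyte marker). Sham 1, the sham library with the highest sums of atrial and of fibroblast markers, had a ratio inside the Pacing range. Among Pacing 2, Sham 1 and Pacing 3, the ratio was highest in Pacing 2, which also had the highest sum of atrial markers. The part of any of these tissues or cell types in the levels of Rpl3l and Rpl3 was not tested.

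**Figure D4:**
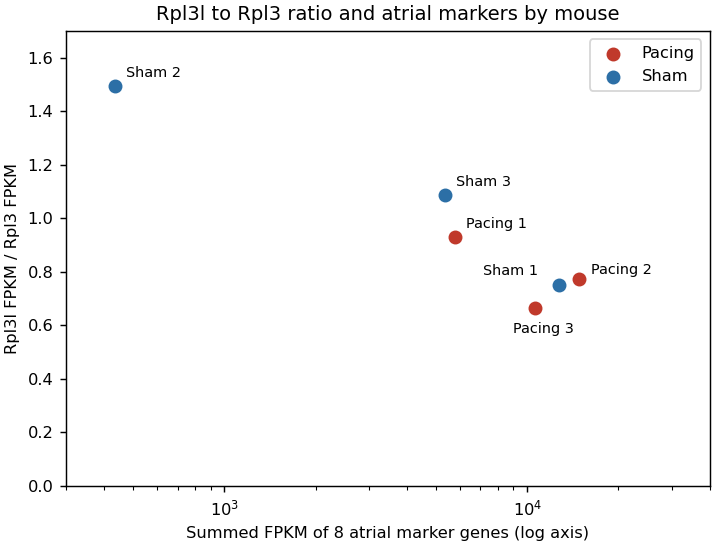
Ratio of Rpl3l to Rpl3 FPKM in each mouse (vertical axis) against the summed FPKM of 8 atrial marker genes (horizontal axis, logarithmic). Sham 2, with the lowest sum of atrial markers, has the highest ratio at 1.49, and the 3 mice with the highest sums, Pacing 2, Pacing 3 and Sham 1, lie at 0.665 to 0.772.

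The 3 names that the minimum left out had almost no reads. Rpl39l averaged 0.127 FPKM in Pacing ventricles and 0.468 FPKM in Sham ventricles, and Rpl37rt averaged 0.319 FPKM in Pacing ventricles and 0.456 FPKM in Sham ventricles. Rpl10l, a testis copy of Rpl10, was listed at the floor of 0.01 FPKM in all 6 libraries. Just inside the minimum, Rps19bp1 had 13.1, 15 and 11 FPKM in Pacing 1, 2 and 3, and 9.83, 11.3 and 18.4 FPKM in Sham 1, 2 and 3, which overlapped widely. The minimum thus fell in a wide gap between expressed and nearly silent names.

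Among genes of the ribosome that the name rule missed, Fau, Gnb2l1 and a row at the Rpl34 locus also overlapped between the groups. Fau, whose product is cut into a small-subunit protein and a ubiquitin-like protein, averaged 518 ± 19.6 FPKM in Pacing ventricles and 489 ± 53.0 FPKM in Sham ventricles. Gnb2l1, also known as Rack1, a scaffold on the small subunit, averaged 503 ± 29.3 FPKM in Pacing ventricles and 482 ± 44.3 FPKM in Sham ventricles (SD, n = 3 each). The row Rpl34-ps1, which the table places at the RefSeq locus of Rpl34, averaged 664 ± 10.3 FPKM in Pacing ventricles and 627 ± 57.8 FPKM in Sham ventricles. A canonical set of 80 genes, with the ribosomal genes that the rule misses and without the paralogs and Rps19bp1, had 50 differences above 0 and 30 below 0, a median of 0.03 and 0 genes past the adjusted threshold.

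Some single values come from rows that share sequence with other genes or span them. Of 82 members matched to annotated transcripts, 28 had at least 1 other gene with 95% identity over 80% of their length, up to 32 for Rpl7a and 23 for Rps12, and 54 had none. In 7 members (Rps15, Rpl38, Rps4l, Rpl31, Rpl5, Rpl32 and Rps27a) the row of the table was more than 10 kb longer than the RefSeq gene, so that it may hold fragments of neighbouring genes.

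Beyond the cytosolic ribosome, no gene in the other lists of the translation machinery passed the adjusted threshold. Mitochondrial ribosomal proteins, which build the separate ribosome of the mitochondrion, had 72 of 77 differences below 0 (median -0.12). At an unadjusted p under 0.05, 7 of the 77 were lower and 0 higher, beside 3.69% lower and 5.17% higher among all genes. No overlap was seen in 22 of 77, all with Pacing below Sham, where 6.97% of all genes were so. Mrps9 had 70.4, 71.1 and 67.6 FPKM in Pacing 1, 2 and 3, and 76.4, 85.1 and 90.5 FPKM in Sham 1, 2 and 3 (difference -0.26, SE 0.08, limma adjusted p = 0.476). Mrpl13 had 120, 99.5 and 103 FPKM in Pacing 1, 2 and 3, and 123, 130 and 134 FPKM in Sham 1, 2 and 3 (difference -0.26, SE 0.09, limma adjusted p = 0.492). Both genes were below every Sham value in all 3 paced mice. The median of this list kept its sign in all 4 scalings, from -0.15 after centring on medians to -0.05 with equal sums, where 55 of 77 were below 0. The separation of the groups was mostly lost with equal sums, with 6 genes below and 2 above without overlap, where 13.9% of all genes had none, and 1 gene lower at an unadjusted p under 0.05. Without Sham 3, 0 were lower at that p. Of the 10 ventricular muscle markers, all with a difference below 0, 2 had an unadjusted p under 0.05 and 2 had no overlap, and their part in this difference was not tested.

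Ribosome biogenesis factors, which make rRNA and assemble the subunits, had 36 differences above 0 and 57 below 0 among 93 genes (median -0.03). At an unadjusted p under 0.05, 2 of the 93 were higher (Polr1c and Gar1) and 4 lower (Nop56, Ddx47, Polr1e and Rrp9). Of all genes, 5.17% were higher and 3.69% lower at that p. Those with the lowest p were Nop56, a core protein of the particles that methylate rRNA, at 16.9 ± 1.39 FPKM in Pacing ventricles and 21.2 ± 1.14 FPKM in Sham ventricles (limma adjusted p = 0.428), and Ddx47, an RNA helicase, at 23.2 ± 0.888 FPKM in Pacing ventricles and 28.6 ± 2.02 FPKM in Sham ventricles (limma adjusted p = 0.433). Subunits of RNA polymerase I pointed both ways, with a difference of 0.30 for Polr1c, which is shared with RNA polymerase III, and -0.30 for Polr1e. The medians of this list, of 40 initiation factors (-0.02) and of 12 elongation factors (-0.03) turned above 0 with equal sums, to 0.04, 0.06 and 0.05, and that of the elongation factors also after quantile normalization, to 0.01.

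Other genes with a known TOP tract had 13 differences above 0 and 7 below 0 among 20, with a median of 0.02 that turned to -0.0031 after centring on medians. Of these, Vim, the intermediate filament protein of fibroblasts and other mesenchymal cells, had 273, 290 and 322 FPKM in Pacing 1, 2 and 3, and 287, 146 and 181 FPKM in Sham 1, 2 and 3. It had the largest difference of the list (0.58, SE 0.21, limma adjusted p = 0.513) and overlapped through Sham 1. Without Sham 1 its adjusted p was 0.0205 (limma), where 100 of 11975 genes passed the adjusted threshold. With any other mouse left out, no gene of the list passed. Pabpc1, the poly(A)-binding protein, had 61.4, 58.5 and 57.3 FPKM in Pacing 1, 2 and 3, and 56.9, 41.7 and 49.8 FPKM in Sham 1, 2 and 3, without overlap (difference 0.26, SE 0.11, limma unadjusted p = 0.0463, adjusted p = 0.563). Eef1a1, which delivers tRNA to the ribosome, had 1258, 1398 and 1331 FPKM in Pacing 1, 2 and 3, and 1342, 797 and 1047 FPKM in Sham 1, 2 and 3. Sham 1 lay among the Pacing values in Vim and Eef1a1, and Sham 2 was the lowest mouse in all 3 genes.

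Regulators of ribosome production gave 11 differences above 0 and 18 below 0 among 29 genes, with a median of -0.02 that turned to 0.05 with equal sums. Myc, which drives ribosomal genes, averaged 2.00 ± 0.229 FPKM in Pacing ventricles and 1.60 ± 0.397 FPKM in Sham ventricles, Mtor averaged 6.68 ± 0.309 FPKM in Pacing ventricles and 7.40 ± 1.12 FPKM in Sham ventricles, and Larp1 averaged 13.3 ± 2.2 FPKM in Pacing ventricles and 12.6 ± 0.913 FPKM in Sham ventricles (SD, n = 3 each). None of these 3 passed the test (limma adjusted p of at least 0.734). Mnt, a repressor that competes with Myc for its partner Max, had the lowest p of the list, at 4.39 ± 0.352 FPKM in Pacing ventricles and 3.29 ± 0.159 FPKM in Sham ventricles (difference 0.33, SE 0.10, limma adjusted p = 0.472). Mycn went the other way, at 1.02 ± 0.292 FPKM in Pacing ventricles and 1.96 ± 0.739 FPKM in Sham ventricles (limma adjusted p = 0.523).

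**Figure D5:**
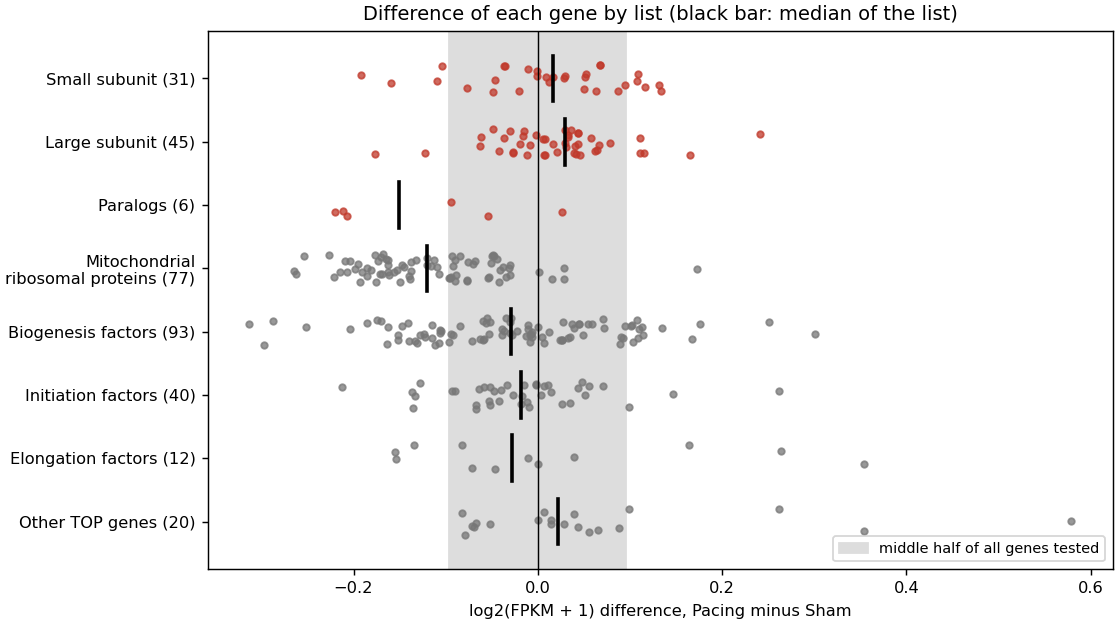
Pacing minus Sham, in log2(FPKM + 1), for each gene (points) of the ribosomal protein groups (red) and other lists of the translation machinery (grey), with the median of each list as a black bar and the range between the quartiles of all genes tested shaded. Small- and large-subunit genes lie around medians of 0.02 and 0.03, and mitochondrial ribosomal proteins around -0.12.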

How the data were processed

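Ventricular polyA RNA of 6 mice was sequenced in stranded libraries, per the labels' protocols. Build mm10 and the tools Cuffdiff, Cufflinks, Bowtie2 (2.2.6), TopHat2 (2.1.0) and FastQC (1.0.0) are listed in the submitters' processing notes; annotation, strand setting and the treatment of reads with several matches were not stated there. The authors deposited FPKM per gene and mouse (24239 rows, with 0.01 where no fragment is listed) and a comparison table (24341 rows) with FPKM per group and q-values, per the file headers. Because FPKM values are normalized, limma 3.58.1 (R 4.3.3) was used in place of a count model, on log2(FPKM + 1) of the 11994 genes with a mean of at least 1 FPKM (eBayes with trend, group as the only term, all 6 mice), two-sided, with Benjamini-Hochberg adjustment over all of them; differences are Pacing minus Sham on this scale, on which low genes show too small a change. 1 row with a failed estimate was left out. The series design gives 3 mice per group, so p-values measure the spread between mice. Depth came from the lowest FPKM values, which were whole multiples of 1 fragment in 100% of 47 to 61 values per library, within 0.1 fragment and with lengths shortened by 166 bases; for transcripts under 600 bases (30 members) this shortening is a large part of the length. Ratios of paralogs were compared with exact permutation tests over mice. Near-identical genes were found with BLAST 2.17.0, and starts of rows are counted from 1. Tests were checked on simulated data.

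The members and lists were chosen with earlier results of these data known. Named genes are the 5 members highest in level per subunit, the 5 with the lowest p in each direction, stalk proteins, paralogs with their main copies, members with known roles and those next to the minimum, and from other lists those with the lowest p; Rpl26, Rpl30, Rps15a, Rps10, Rps7, Hnrnpa1 and Eef1a1 were named after their values were seen. A few genes that the rule would name are left out of the text and of the plot by gene. Alternatives were pseudocounts of 0.1 and 0.5, no minimum or 5 FPKM, 3 other scalings, other variance models, array weights, a replicate block, no repeated names, each mouse left out and other memberships; the canonical set was added after seeing the data.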

Additional observations from a re-analysis of the deposited data

How the results depend on the processing

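No member passed the adjusted threshold under any alternative run, and none was called in the authors' deposited table at a q under 0.01 or 0.1. Genes of the whole table past the adjusted threshold (0) became 6 without a minimum, 1 with robust eBayes and 7 with the replicate block, and 0 to 100 when each mouse was left out (100 without Sham 1). Deviations of same-numbered mice had correlations of -0.13, -0.02 and -0.02, where those of unlike numbers lay between -0.10 and 0.11. Because deviations were centred within groups of 3 mice, these values cannot decide whether replicate numbers pair the mice. The block changed no call of a member. Genes higher at an unadjusted p under 0.05 (620) became 381 with a minimum of 5 FPKM and 969 with equal sums, and those lower (442) became 148 with equal sums; leaving out each mouse gave 412 to 994 higher and 295 to 733 lower. After centring on medians the split was 514 higher and 609 lower, and after quantile normalization 537 higher and 581 lower. Members higher at an unadjusted p under 0.05 (0) became 3 with equal sums and 6 after quantile normalization (among them Rps14, Rps16, Rps21, Rps27rt and Rpl13a). On these scales, 969 of 12003 and 537 of 11994 genes were higher at that p. In either direction, 9.31% and 9.32% of all genes were at it. Members lower at that p (0) became 2 with array weights (Rps28 and Rps27l), where 10.7% of all genes were at that p in either direction. Leaving out each mouse gave 0 to 1 members higher and 0 to 3 lower, where 6.04% to 14.4% of all genes were at that p in either direction. Members without overlap (1, Rps28) became 16 with equal sums and 12 after quantile normalization, all with Pacing above Sham. Of all genes, 13.9% and 14.6% had no overlap there, counted in either direction. When each mouse was left out, 2 to 22 members had none (15 without Sham 2, all lower, and 22 without Sham 3, 21 of them higher). Among all genes this share was 22.1% to 31.8% in either direction (22.1% without Sham 2 and 22.4% without Sham 3). Shares of all genes by direction are not given for these settings. The median difference of the members ranged from -0.06 to 0.09 over all alternatives. Of 34 named members, 19 changed sign under some alternative, most with differences near 0, and Rpl36a (0.11) turned to -0.0014 without Sham 2, within a range of -0.0014 to 0.17 when each mouse was left out. The cause of these changes was not tested. With 3 mice per group at depths of 6277000 to 8905000 fragments, the unadjusted 95% intervals of the members reached 0.168 to 1.52 to either side.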
